A study of Arabidopsis thaliana with 27 samples.

Results

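The response of wild-type root tips to 180 min of estradiol was read from 6 of the 27 libraries of the series, chosen by their genotype, treatment and time labels. These were the 3 libraries of Col-0 after 180 min of estradiol and the 3 libraries of Col-0 after 90 min of mock treatment, called A, B and C in each group after the letters in their titles. The series asked how auxin signaling acts on gibberellin in growing roots, with Col-0 and 2 estradiol-inducible lines, called pG1090::XVE ≫ AXR3-1 and, for the other, pG1090::XVE ≫ ΔMP. In these lines the XVE activator turns on its target when estradiol binds it, and the target is a stabilized Aux/IAA repressor (AXR3-1, a form of IAA17) or an ARF5/MP protein that Aux/IAA repressors cannot hold back (ΔMP). Col-0 carries neither construct, so its libraries describe root tips without an induced transgene. Handling and medium were shared by its mock and estradiol groups, so their effects are not measured by comparing these groups.

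All seedlings were 5 d old and had grown on agar plates with sucrose before liquid medium was poured over them and drained off. The estradiol groups received 2.5 μM estradiol dissolved in DMSO and were sampled after 90 or 180 min. The mock groups received DMSO in the same medium and were sampled after 90 min only. With no mock at 180 min, the comparison at 180 min differs in estradiol and in 90 min of further time, and these cannot be told apart within Col-0. RNA came from pooled root tips, so every value is a mean over many roots, and fewer cells of a type cannot be told apart from less RNA per cell. Nothing in the labels says whether A, B and C came from separate cultures. The p-values measure only the spread between libraries of a group, estimated over all 27 libraries of the series.

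As background, wetting and draining a root changes what it can take up within minutes to hours. Oxygen moves slowly through water, and low oxygen turns on a small set of genes for fermentation and for oxygen sensing, which are turned off again once air returns. Roots also carry regulators that follow supply: bHLH factors of group Ib for iron, LSU and APR genes for sulfate, bZIP1 and trehalose phosphate synthase proteins for sugar, and the BT scaffold proteins for nitrate and sugar. The circadian clock moves many of the same genes with the time of day, and abscisic acid, the hormone of water shortage, is broken down by the CYP707A enzymes.

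Estimated read pairs ran from 13634037 to 20125221 in the 6 libraries. Library B of 180 min was the shallowest of the series and stood farthest out on the first principal component of the 9 Col-0 libraries, at -27.74 against -16.93 and -14.13 for A and C. Markers of the root tip were well expressed in every library. The 9 root cap genes summed to between 240 and 275 TPM. TPM is a level corrected for transcript length and sequencing depth, with the same sum in every library. The 20 tested genes of the root meristem and stem cell niche summed to between 380 and 422 TPM. The 20 tested genes for light, chlorophyll and green tissue summed to between 419 and 439 TPM in these 6 libraries, with no gap between the groups. The native copies of the genes used in the transgenes did not pass the test. AXR3 (IAA17) stood at 161, 143 and 153 TPM in the mock and 148, 150 and 160 TPM at 180 min, and MP (ARF5) changed by -0.01 on the log2 scale (adjusted p = 0.942).

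At 180 min, 48 of 19530 genes tested were called, which is 0.246%. To be called, a gene needed an adjusted p no larger than 0.05 and a change of at least 1 on the log2 scale. A gene is said to have risen or fallen when it met the first of these. Counts of list or family members higher, lower, above or below use the same rule. A gene is said to lose the call without a library when its adjusted p then exceeded 0.05, whatever the size of its change. The 22 genes called higher were 0.113% of those tested and the 26 called lower were 0.133%. Without the limit on the size of the change, 445 genes rose (2.28%) and 788 fell (4.03%). Across all genes tested the median change was 0.003 on the log2 scale. In 46 of the 48 called genes the 3 TPM values at 180 min lay all above or all below those of the mock, against 21.5% of all genes tested. The exceptions were the plastid genes ATCG00170 and ATCG00720, and since the calls rest on the same libraries this count is a description. Among the called genes, 24 had a symbol in the RefSeq table.

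**Figure D1:**
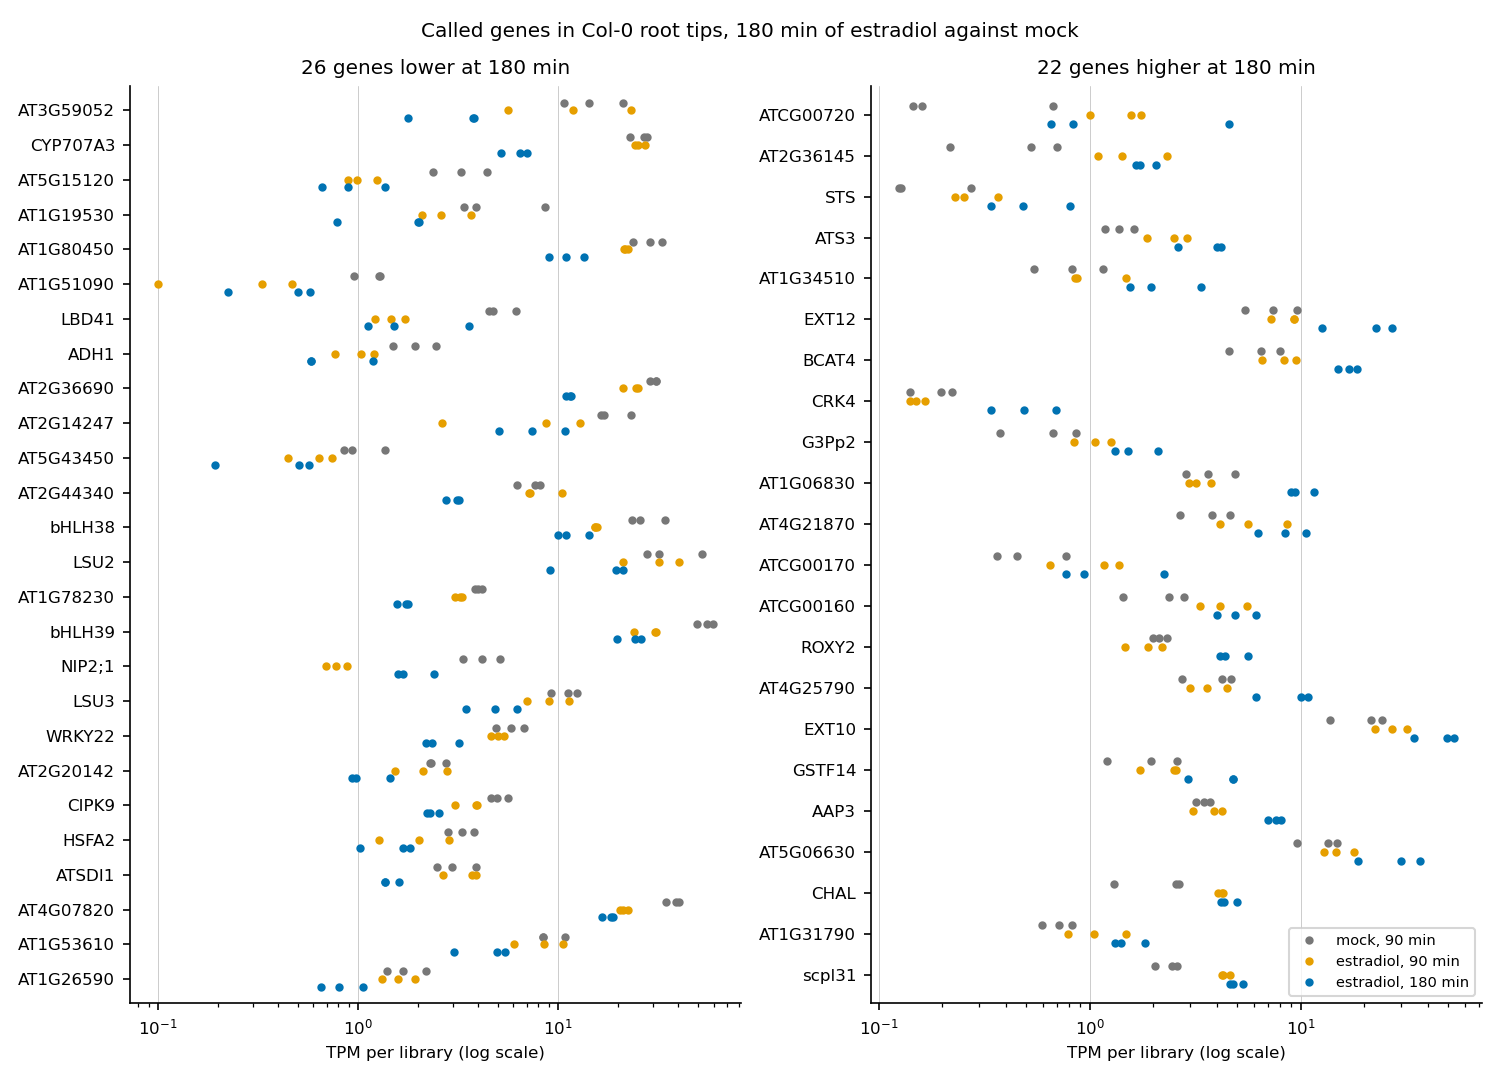
TPM on a log scale for the 48 called genes in the 9 Col-0 libraries, with 1 point per library (gray, mock at 90 min; orange, estradiol at 90 min; blue, estradiol at 180 min). The 26 genes called lower are on the left and the 22 called higher on the right, ordered by the size of their change. For CYP707A3 the orange points lie on the gray ones, and for bHLH39 they lie near the blue ones.

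The 3 Col-0 libraries at 90 min of estradiol give 2 further comparisons. Against the mock, which was harvested at the same time, 574 genes passed at 90 min (2.94%), 467 of them lower. This is a difference between treatments at 1 time, and none of the libraries used here was taken before treatment. From 90 to 180 min, with estradiol in both groups, 1102 genes passed (5.64%), 552 of them higher. Of the 48 called genes, 10 passed only in estradiol against mock at 90 min and 17 only from 90 to 180 min. The 10 held 8 genes that were lower, and the 17 held 9 that rose and 8 that fell. A further 3 genes passed in both comparisons and 18 in neither. Below, a level at 90 min is that of the estradiol group unless the mock is named. Both comparisons share the libraries at 90 min of estradiol, and each shares a group with the comparison at 180 min, so the values below are set side by side.

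The largest fall of any gene with a symbol was that of CYP707A3, an abscisic acid 8'-hydroxylase that starts the breakdown of the hormone (chromosome 5, 18368532 to 18371021, minus strand, 6 coding exons). It stood at 27.8, 22.9 and 26.9 TPM in the mock, 25.2, 24.4 and 27.4 TPM at 90 min, and 6.5, 7.04 and 5.22 TPM at 180 min. The groups at 90 min with and without estradiol overlapped, and all 3 libraries at 180 min were far below both. CYP707A3 fell by 2.02 on the log2 scale at 180 min (SE 0.15, adjusted p = 3.1e-10), a level 4.07-fold lower. Its difference from the mock at 90 min was 0.01 (adjusted p = 0.987), and its change from 90 to 180 min was -2.03 (adjusted p = 5.49e-11). CYP707A1, the other member of the family with counts enough to test, fell by 0.69 at 180 min (adjusted p = 9.69e-05).

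In the list of abscisic acid and water loss, 7 of 22 tested genes fell at 180 min with none higher (median -0.07 on the log2 scale). The 7 include CYP707A3 and CYP707A1. HAI1, a phosphatase of the hormone's signaling, stood at 1.77, 1.86 and 1.70 TPM in the mock and 0.785, 0.885 and 1.06 TPM at 180 min (log2 change -0.98, adjusted p = 0.00188). The groups did not overlap. ERD10 and COR47, dehydrins made in cold or dry cells, fell by 0.40 and 0.23, and the receptor PYL4 by 0.26. NCED3, the enzyme that limits synthesis of the hormone, changed by -0.06 and did not pass.

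Genes of the response to low oxygen were lower than in the mock, 5 of 14 tested at 90 min and 6 at 180 min, with none higher at 180 min (median -0.37). LBD41, a LOB domain factor turned on by low oxygen, stood at 4.54, 4.72 and 6.18 TPM in the mock, 1.21, 1.72 and 1.47 TPM at 90 min, and 1.13, 3.58 and 1.52 TPM at 180 min. Library B of 180 min was the highest of its group, yet below every mock library. Against the mock, the log2 difference of LBD41 was -1.87 at 90 min (adjusted p = 0.000248) and -1.40 at 180 min (SE 0.30, adjusted p = 0.00364).

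AT5G15120, a cysteine oxidase of the oxygen sensing pathway (PCO1), stood at 2.37, 4.41 and 3.3 TPM in the mock, 0.991, 1.25 and 0.896 TPM at 90 min, and 0.666, 0.889 and 1.36 TPM at 180 min. It fell by 1.81 at 180 min (SE 0.37, adjusted p = 0.00213), and both estradiol groups lay below the mock. ADH1, alcohol dehydrogenase of ethanol fermentation, stood at 1.50, 2.45 and 1.93 TPM in the mock and 0.584, 1.19 and 0.580 TPM at 180 min. This gene had only 36 counts in mock library A and 16 in library A of 180 min, and it fell by 1.40 (SE 0.31, adjusted p = 0.00507). AT3G10040 (HRA1), which restrains the response, fell by 0.84, and the pyruvate decarboxylases AT4G33070 (PDC1) and PDC2 fell by 0.52 and 0.23. The hemoglobin HB1 and the sucrose synthases SUS1 and SUS4 changed by between -0.11 and 0.12 and did not pass.

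NIP2;1, an aquaporin-like channel for lactic acid that low oxygen turns on in roots, had another order of levels. It stood at 3.36, 4.16 and 5.14 TPM in the mock, 0.881, 0.696 and 0.780 TPM at 90 min, and 1.59, 1.69 and 2.40 TPM at 180 min. The 3 groups did not overlap, with the lowest level at 90 min. Against the mock its log2 difference was -2.46 at 90 min (adjusted p = 6.19e-07). NIP2;1 rose by 1.29 from 90 to 180 min (adjusted p = 0.00927) and was 1.17 lower than the mock at 180 min (adjusted p = 0.0025). In its coding sequence 23.1% of 31-base words occur in another gene, so its reads may be split with a paralog.

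Iron genes fell, 7 of 21 tested at 180 min with none higher (median -0.16). bHLH38 and bHLH39 encode group Ib factors that pair with FIT to turn on iron uptake, and they lie side by side on the minus strand of chromosome 3 (21084035 to 21085245 and 21086390 to 21087710). bHLH39 stood at 49.5, 59.8 and 55.5 TPM in the mock, 24.1, 30.6 and 31 TPM at 90 min, and 19.8, 24.3 and 26 TPM at 180 min. Both estradiol groups lay below every mock library and overlapped each other. Against the mock, the log2 difference of bHLH39 was -0.96 at 90 min (adjusted p = 1.51e-06) and -1.22 at 180 min (SE 0.12, adjusted p = 7.15e-08). bHLH38 stood at 23.6, 34.5 and 25.8 TPM in the mock and 9.96, 14.3 and 11 TPM at 180 min, a fall of 1.25 (SE 0.20, adjusted p = 0.000131).

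The group Ib factor BHLH101 was lowest at 90 min (log2 difference from the mock -1.59, adjusted p = 0.000162) and was 0.83 below the mock at 180 min. FIT itself (listed as FRU) differed from the mock by -0.01 at 90 min (adjusted p = 0.975) and by -0.41 at 180 min, with 125, 128 and 122 TPM in the mock and 91.8, 98.4 and 88.8 TPM at 180 min. PYE and BTS, regulators of the iron shortage response, fell by 0.58 and 0.22, and the shoot-to-root iron signal transporter OPT3 by 0.63. The genes for uptake at the root surface, IRT1 and FRO2, both changed by 0.25 and did not pass. Thus 3 of the 4 tested group Ib genes fell, and BHLH100 (-0.49) did not pass. The fall of BHLH101 at 180 min (adjusted p = 0.0338) depended on single libraries. It was not past the threshold without mock library B or C, or without library A, B or C of 180 min (adjusted p up to 0.141).

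Of the sulfate genes, 5 of 9 tested fell at 180 min with none higher (median -0.54), and 3 fell without mock library B. Outside the list LSU3 and ATSDI1 were called. LSU2 and LSU3 mark low sulfur, and ATSDI1 is a tetratricopeptide protein that lowers glucosinolate synthesis under low sulfur. ATSDI1 stood at 3.91, 2.97 and 2.49 TPM in the mock, 3.72, 3.89 and 2.65 TPM at 90 min, and 1.37, 1.37 and 1.60 TPM at 180 min. The mock and 90 min overlapped, and 180 min lay below both (log2 change -1.09, SE 0.24, adjusted p = 0.0041). APR2 and APR3, which reduce activated sulfate, fell by 0.61 and 0.65, and the main uptake transporter SULTR1;2 fell from 328, 315 and 331 TPM to 212, 242 and 213 TPM. From 90 to 180 min these 3 genes also passed, at -0.83, -0.55 and -0.44.

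LSU2 stood at 31.8, 52.8 and 27.8 TPM in the mock and 9.17, 19.5 and 21.2 TPM at 180 min (log2 change -1.25, adjusted p = 0.00377). Mock library B was far above A and C, and without it the change was no longer past the threshold (adjusted p = 0.0691). LSU3 stood at 11.2, 12.5 and 9.20 TPM in the mock and 4.84, 6.26 and 3.46 TPM at 180 min (log2 change -1.17, adjusted p = 0.0128). It lost the call without mock library B or without library C of 180 min, with an adjusted p of up to 0.0913.

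Immune genes fell, 7 of 19 tested with none higher (median -0.19). WRKY22 and WRKY29 are transcription factors that act after pattern recognition. WRKY22 stood at 5.85, 4.88 and 6.76 TPM in the mock, 4.62, 5.04 and 5.36 TPM at 90 min, and 2.35, 2.2 and 3.21 TPM at 180 min, and fell by 1.15 (SE 0.16, adjusted p = 2.63e-05). WRKY29 stood at 25.4, 24.5 and 26.1 TPM in the mock, 26, 26 and 29 TPM at 90 min, and 13.1, 11.6 and 13.3 TPM at 180 min. Its change of -0.99 (adjusted p = 3.46e-07) missed the limit on size narrowly. Of 53 WRKY genes tested in all, 15 fell and none rose, a family looked at after its members were seen among the falls.

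AT1G80450 and AT2G44340 encode proteins with a VQ motif, which bind WRKY factors. AT1G80450 stood at 33.1, 29.0 and 23.7 TPM in the mock, 21.6, 21.4 and 22.4 TPM at 90 min, and 9.04, 13.6 and 11 TPM at 180 min. It differed from the mock by -0.47 at 90 min (adjusted p = 0.0372) and fell by 0.93 from 90 to 180 min. AT2G44340 differed from the mock by 0.14 at 90 min (adjusted p = 0.811) and was 1.29 lower than the mock at 180 min (adjusted p = 0.000318). YLS9 (NHL10), a marker of immune signaling, was already 0.97 lower than the mock at 90 min on the log2 scale and 0.89 lower at 180 min.

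The steepest fall for its error, beside CYP707A3, was that of AT2G36690, an oxygenase of the 2-oxoglutarate and iron family. It stood at 30.8, 28.8 and 30.9 TPM in the mock, 21.1, 24.6 and 25.1 TPM at 90 min, and 11.7, 11.4 and 11 TPM at 180 min. The 3 groups did not overlap, and the fall of 1.39 at 180 min had an SE of 0.11 (adjusted p = 3.1e-10). CIPK9, a kinase of the calcium sensor network for potassium, stood at 5.61, 4.62 and 4.96 TPM in the mock and 2.30, 2.54 and 2.21 TPM at 180 min (log2 change -1.10, adjusted p = 2.28e-05).

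Heat and protein folding genes fell in 4 of 11 tested with none higher (median -0.19). The heat shock factor HSFA2 stood at 2.84, 3.81 and 3.33 TPM in the mock and 1.83, 1.02 and 1.68 TPM at 180 min (log2 change -1.09, SE 0.24, adjusted p = 0.00421). HSP70 and HSP90.1, chaperones, differed from the mock by -0.66 and -0.49 at 90 min and by -0.78 and -0.64 at 180 min. Of the genes of phosphate starvation, 5 of 15 fell and 1 rose (median -0.25). Without library A of 180 min or mock library A, 3 fell. The sensor SPX1 fell by 0.69 and the transporter PHT1;1 by 0.44, while PHO1;H1, a phosphate exporter, rose by 0.49.

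Among the genes called higher, 3 encode extensin-like wall proteins, rich in proline, which make up walls of root hairs and other root cells. EXT12 stood at 9.59, 7.34 and 5.43 TPM in the mock, 7.18, 9.26 and 9.32 TPM at 90 min, and 12.5, 27.2 and 22.8 TPM at 180 min. Library A of 180 min lay close above the mock, and B and C were more than 2-fold above it. EXT12 rose by 1.41 (SE 0.26, adjusted p = 0.000737), and from 90 to 180 min by 1.26.

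EXT10 stood at 24.2, 21.4 and 13.7 TPM in the mock, 22.4, 26.9 and 31.8 TPM at 90 min, and 34.4, 53.3 and 49.3 TPM at 180 min, a rise of 1.12 (SE 0.20, adjusted p = 0.000622). AT5G06630, its neighbor on chromosome 5 (2036312 to 2037855), rose by 1.09 from 14.9, 13.4 and 9.63 TPM to 18.7, 36.6 and 29.8 TPM. In both genes, as in EXT12, library A of 180 min was the lowest of its group. Of the words in the coding sequence of AT5G06630, 21.7% occur in another gene, and 8.8% of those in EXT10, so part of their reads may be exchanged between paralogs.

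Root hair genes rose in 8 of 29 tested with none lower (median 0.22). RHS19, a peroxidase, stood at 44.0, 37.5 and 32.6 TPM in the mock and 56.5, 67.8 and 71.9 TPM at 180 min (log2 change 0.79, adjusted p = 0.000136). The groups did not overlap. PRP3, a proline-rich wall protein, rose by 0.51, the xyloglucan enzymes XTH14 and XTH12 by 0.71 and 0.76, and RHS13 by 0.64. The 8 also held PRP1 (0.92) and GL2 (0.39), the second a gene of epidermal cell fate and not a marker of hair growth. With DESeq2 or limma as the test, alternatives given below, PRP1, PRP3 and XTH12 did not pass. G3Pp2, named for a glycerol 3-phosphate permease and also listed as root hair specific 15, rose by 1.39 from 0.672, 0.861 and 0.374 TPM to 1.32, 1.52 and 2.12 TPM, and lost the call without library C of either group or mock library A. The regulators of hair growth RHD6, RSL1, RSL2 and RSL4 changed by between -0.22 and 0.11 and did not pass. Summed over the 29 genes, the level was 751, 751 and 665 TPM in the mock and 784, 969 and 930 TPM at 180 min. Without mock library C 4 root hair genes rose, without mock library A or library B or C of 180 min 5 rose, and the other counts were 6 and 9.

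BCAT4, called higher, removes the amino group of methionine in the first step of its chain elongation toward glucosinolates. It stood at 6.45, 7.99 and 4.57 TPM in the mock, 8.31, 9.44 and 6.57 TPM at 90 min, and 14.9, 18.4 and 17.0 TPM at 180 min. The first 2 groups overlapped and 180 min lay above both, a rise of 1.41 (SE 0.23, adjusted p = 0.000163). Of the glucosinolate and camalexin list, 3 of 18 rose and 1 fell (median -0.03), with CYP83A1 and CYP79F2 of the same branch at 0.85 and 0.40 and CYP79B3 of the indole branch at 0.64. Of 12 isopropylmalate and methylthioalkylmalate enzymes, a family looked at after the calls were seen, 6 rose and none fell, led by MAM1 at 0.97, IMS2 at 0.73 and IMD1 at 0.64.

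Among carriers and redox proteins, AAP3, an amino acid permease, stood at 3.18, 3.48 and 3.70 TPM in the mock, 3.87, 4.22 and 3.08 TPM at 90 min, and 6.99, 8.07 and 7.60 TPM at 180 min. It rose by 1.12 (SE 0.14, adjusted p = 2.1e-06) and had the smallest SE of the genes called higher. The glutaredoxin AT1G06830 stood at 3.62, 4.88 and 2.86 TPM in the mock, 2.97, 3.17 and 3.76 TPM at 90 min, and 9.35, 8.94 and 11.5 TPM at 180 min. The rise of 1.35 (adjusted p = 0.00841) was not past the threshold without mock library C (adjusted p = 0.0547). ROXY2, also a glutaredoxin, rose by 1.17 and GSTF14, a glutathione transferase, by 1.12, and each lost the call without any of 4 of the 6 libraries.

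The other named rises were of low genes. STS, stachyose synthase, stood at 0.127, 0.275 and 0.124 TPM in the mock and 0.482, 0.809 and 0.342 TPM at 180 min (log2 change 1.58, adjusted p = 0.00758). ATS3, first described in embryos, stood at 1.37, 1.18 and 1.62 TPM in the mock and 3.99, 4.17 and 2.62 TPM at 180 min (1.47, adjusted p = 0.00273). CRK4, a receptor-like kinase, rested on 8 counts in mock library A (1.41, adjusted p = 0.0442). Of these 3, STS and CRK4 lost the call without some library. The peptidase-like scpl31 was 0.89 higher than the mock at 90 min and 1.05 higher at 180 min, with 2.04, 2.46 and 2.59 TPM in the mock and 4.78, 5.34 and 4.61 TPM at 180 min. CHAL, a peptide of the EPFL family known from stomatal patterning of hypocotyls and stems, rose by 1.07 from 1.3, 2.64 and 2.56 TPM to 4.21, 4.98 and 4.33 TPM, and lost the call without mock library A or library B of 180 min.

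The other called genes without a symbol are given by locus and RefSeq product. AT3G59052, with no RefSeq entry, had the lowest value of the 48, -2.17 on the log2 scale (SE 0.50, adjusted p = 0.00666), with 14.3, 10.7 and 21.2 TPM in the mock and 3.77, 1.78 and 3.83 TPM at 180 min. AT1G19530 (listed as a DNA polymerase epsilon subunit) changed by -1.67, AT1G51090 (heavy metal transport) by -1.41, AT2G14247 (uncharacterized) by -1.32, AT1G78230 (listed as a dynein light chain) by -1.24 and AT2G20142 (TIR domain) by -1.14. AT4G07820 (CAP family) changed by -1.08, AT1G53610 (uncharacterized) by -1.04 and AT1G26590 (C2H2 zinc finger) by -1.02. Among the higher genes were AT2G36145 (uncharacterized) at 1.86, AT1G34510 (peroxidase) at 1.46, AT4G21870 (HSP20-like, adjusted p = 0.0141), AT4G25790 (CAP family) at 1.13 and AT1G31790 (tetratricopeptide repeat) at 1.06. With 1 library left out, adjusted p reached 0.241 for AT1G34510, 0.191 for AT1G51090, 0.184 for AT1G53610 and 0.154 for AT1G26590. AT1G19530, AT2G14247, AT2G20142, AT2G36145, AT4G21870 and AT1G31790 also lost the call without at least 1 library. AT3G59052, AT1G78230, AT4G07820 and AT4G25790 did not. AT2G36145 rested on 4, 7 and 2 counts in the mock.

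Plastid-encoded genes (ATCG00160, ATCG00170 and ATCG00720) gave 3 of the 22 calls higher, and 14 of 55 tested rose with none lower (median 0.45), a family looked at after its calls were seen. Their summed level was 1759, 1732 and 1860 TPM in the mock, 2124, 2182 and 2230 TPM at 90 min, and 2113, 2251 and 2360 TPM at 180 min. The mock lay below both estradiol groups, and those 2 groups overlapped. Of 36 mitochondrion-encoded genes, 2 rose and none fell (median 0.34), and their summed level was 189, 154 and 201 TPM in the mock and 202, 318 and 247 TPM at 180 min. Libraries were made from polyA-enriched RNA, and most organelle transcripts carry no stable polyA tail. Whether their capture differed between libraries was not tested. The most extreme value, 2.41 for ATCG00720, rested on 4.59 TPM in library B of 180 min beside 0.836 and 0.653 TPM in A and C, and the 3 plastid genes lost their calls without that library.

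Promoters of some of these genes are printed because the falling genes of different pathways shared a G-box, and the extensin genes a CACACG word. In the 250 bases before the gene start, the G-box CACGTG (read the same on both strands) was in 6 of 25 promoters of genes called lower (24.0%), in 0 of 19 called higher and in 6.60% of 26639 promoters of all genes. The 6 were those of ADH1, CYP707A3, HSFA2, LBD41, LSU3 and bHLH38. The longer ACGTGGC, a core of abscisic acid response elements searched on both strands, overlaps the G-box by up to 5 letters. It was in 4 of 25 promoters of genes called lower, in 0 of 19 called higher and in 3.43% of all. A match describes the letters only. The words given here are part of a longer set searched. In that set the W-box TTGACC was in 5.26% of promoters of genes called higher, 8.0% called lower and 12.2% of all. The TATA box word TATAAA was in 73.7%, 56.0% and 47.7% in the same order. Each sequence is from RefSeq TAIR10.1, ends at the base before the gene start, and has the G-box in capitals.

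LBD41 (chr3:538127-538376, minus strand): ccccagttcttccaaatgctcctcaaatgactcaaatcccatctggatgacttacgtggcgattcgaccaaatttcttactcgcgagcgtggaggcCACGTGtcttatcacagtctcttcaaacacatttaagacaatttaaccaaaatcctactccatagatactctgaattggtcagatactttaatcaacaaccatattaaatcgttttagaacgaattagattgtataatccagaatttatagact
bHLH38 (chr3:21085246-21085495, minus strand): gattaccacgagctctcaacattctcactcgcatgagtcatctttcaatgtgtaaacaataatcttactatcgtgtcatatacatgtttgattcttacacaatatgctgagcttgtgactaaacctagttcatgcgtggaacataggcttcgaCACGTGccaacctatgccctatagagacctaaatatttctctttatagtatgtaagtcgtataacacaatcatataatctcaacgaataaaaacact
LSU3 (chr3:18373148-18373397, minus strand): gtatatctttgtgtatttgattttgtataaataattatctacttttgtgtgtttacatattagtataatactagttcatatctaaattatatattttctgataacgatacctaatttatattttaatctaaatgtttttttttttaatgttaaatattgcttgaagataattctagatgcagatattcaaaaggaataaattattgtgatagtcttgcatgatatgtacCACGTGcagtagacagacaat
CYP707A3 (chr5:18371022-18371271, minus strand): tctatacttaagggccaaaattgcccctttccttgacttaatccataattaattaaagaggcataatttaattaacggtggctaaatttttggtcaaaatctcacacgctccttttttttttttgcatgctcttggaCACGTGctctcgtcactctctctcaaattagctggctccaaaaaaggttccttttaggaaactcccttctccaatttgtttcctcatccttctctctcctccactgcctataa

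The G-box began 154 bases before the gene start in LBD41, 113 in CYP707A3, 97 in bHLH38 and 21 in LSU3. LBD41 and bHLH38 were lower than the mock at 90 min, CYP707A3 fell from 90 to 180 min, and LSU3 passed in neither of these comparisons. The word CGTGTG, with its reverse complement CACACG, is part of a brassinosteroid response element. It was in 5 of 19 promoters of genes called higher (26.3%), in 3 of 25 called lower (12.0%) and in 5.38% of all promoters. EXT10, EXT12 and AT5G06630 were among the 5, and as related genes they are not independent cases. In the next sequences CACACG is in capitals.

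EXT10 (chr5:2041929-2042178, minus strand): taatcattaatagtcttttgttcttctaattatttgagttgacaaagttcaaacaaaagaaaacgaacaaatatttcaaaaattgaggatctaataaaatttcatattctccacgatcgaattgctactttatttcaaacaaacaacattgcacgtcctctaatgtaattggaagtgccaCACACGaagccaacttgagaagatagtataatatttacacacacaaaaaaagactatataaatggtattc
EXT12 (chr4:7783541-7783790, plus strand): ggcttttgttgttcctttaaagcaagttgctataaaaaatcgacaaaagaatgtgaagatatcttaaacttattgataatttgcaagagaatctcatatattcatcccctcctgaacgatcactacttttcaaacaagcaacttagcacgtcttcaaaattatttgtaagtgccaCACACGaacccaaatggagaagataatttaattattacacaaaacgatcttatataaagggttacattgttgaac

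The longest run shared by EXT10 and EXT12 had 16 bases, aagtgccacacacgaa, and held the word. It began 83 bases before the start of EXT12 on chromosome 4 and 78 before that of EXT10 on chromosome 5. EXT12 and AT5G06630 shared the same run with 1 more base, 17 in all. The neighbors EXT10 and AT5G06630 shared a run of 17 bases that does not hold the word. The changes of the 22 brassinosteroid genes tested ran from -0.19 to 0.18 on the log2 scale at 180 min (median -0.01).

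Some sugar and nitrate genes were lower in estradiol than in mock at 90 min and higher at 180 min. Of 13 tested genes of sugar and energy starvation, 5 passed below the mock at 90 min and 6 rose from 90 to 180 min. At 180 min 6 passed above the mock and none passed below it (median 0.11). The lowest change in the list at 180 min, -2.34, did not pass. bZIP1, a regulator of the energy shortage program, stood at 12.5, 8.77 and 13.6 TPM in the mock, 3.63, 5.32 and 3.48 TPM at 90 min, and 18.4, 18.9 and 14.5 TPM at 180 min. All libraries at 90 min lay below both other groups. At 90 min the difference of bZIP1 from the mock was -1.53 (adjusted p = 1.93e-05). From 90 to 180 min bZIP1 rose by 2.14 (adjusted p = 5.9e-09), and it was 0.60 above the mock at 180 min (adjusted p = 0.0255). The difference from the mock at 180 min was not past the threshold without mock library B or library A or B of 180 min (adjusted p up to 0.161).

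BT1 and BT2, scaffold proteins that respond to nitrate, sugar and light, had the same order of levels. BT2 stood at 43.6, 44.5 and 55.8 TPM in the mock, 13.1, 17.38 and 16.2 TPM at 90 min, and 79.4, 81.0 and 91.2 TPM at 180 min, so that the 3 groups did not overlap. The difference from the mock was -1.65 at 90 min (adjusted p = 1.12e-08), the rise from 90 to 180 min was 2.46 (adjusted p = 4.95e-13), and the level at 180 min was 0.81 above the mock (adjusted p = 0.000118). TPS8, TPS9 and TPS11, which are trehalose phosphate synthase proteins of the class without shown enzyme activity, were 0.62, 0.47 and 0.88 above the mock at 180 min and below it at 90 min. Of the nitrate list, 2 of 20 rose at 180 min (BT1 and BT2) and 1 fell, the transceptor NRT1.1 at -0.44. Its median was 0.01 at 180 min and -0.02 at 90 min. The nitrate reductases NIA1 and NIA2 changed by 0.07 and 0.01 and did not pass.

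MYB12 and ELIP1, which light and stress turn on, were highest at 90 min. MYB12, a regulator of flavonol synthesis, stood at 22.4, 20.0 and 20.9 TPM in the mock, 37.8, 37.0 and 38.5 TPM at 90 min, and 12.6, 15.9 and 18.25 TPM at 180 min. At 90 min it was 0.82 above the mock, from 90 to 180 min it fell by 1.26, and at 180 min it was 0.44 below the mock (adjusted p = 0.000924). ELIP1, an early light-induced protein of plastids, was 0.98 above the mock at 90 min and 0.43 below the mock at 180 min. Enzymes of the flavonol pathway rose at 180 min, among them TT4 (chalcone synthase) by 0.52, CHIL by 0.41, F3H by 0.34 and FLS1 by 0.34. In the flavonoid and phenylpropanoid list 5 of 15 rose and 2 fell (median 0.03).

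Clock genes fell, 4 of 10 tested of the morning and day and 2 of 12 of the evening, with none higher in either (medians -0.24 and -0.19). Without library C of 180 min 2 of the morning and day fell, and without library B of 180 min or mock library A or B 1 of the evening fell. GI, an evening gene, stood at 34.6, 32.9 and 31.1 TPM in the mock, 37.9, 39.8 and 36.3 TPM at 90 min, and 21.1, 25.7 and 20.9 TPM at 180 min. The libraries at 90 min lay above those of the mock without overlap, a difference of 0.19 that did not pass (adjusted p = 0.13), and those at 180 min lay below both. GI fell by 0.56 (SE 0.07, adjusted p = 2.72e-06). CCA1, a morning regulator, fell by 0.60 (adjusted p = 0.026), and it no longer passed without any 1 of 4 libraries, mock A and B and 180 min B and C (adjusted p up to 0.0979). AT5G64170 (LNK1) fell by 0.47 and PRR7 by 0.43.

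Auxin and gibberellin were the subjects of the study. Of 37 auxin response genes, 3 fell (IAA12, IAA14 and IAA28) and none rose, with a median of -0.04. Without mock library B or library C of 180 min 1 fell, and against the mocks of the other 2 lines, an alternative chosen after seeing the data, 3 rose and 2 fell. IAA28, an Aux/IAA repressor of lateral root founding, fell by 0.43 from 261, 215 and 249 TPM to 177, 174 and 185 TPM. Of 25 gibberellin genes, GA20OX2 (0.57) and GA3OX1 (0.29), enzymes of synthesis, rose and 1 gene fell (median 0.07). No setting that left out a library kept both rises: 0 genes rose without mock library B or C and 1 without each of the others. Without library A of 180 min 2 fell, and without library B 3 fell. GA2OX6, which inactivates gibberellin, stood at 24.2, 25.0 and 23.9 TPM in the mock, 26.7, 28.6 and 25.4 TPM at 90 min, and 17.45, 17.1 and 18.3 TPM at 180 min, a fall of 0.46 (adjusted p = 0.000275). GA2OX8 was low, with means of 0.333 TPM in the mock and 0.671 TPM at 180 min, and its change of 1.03 did not pass (adjusted p = 0.0913), while at 90 min it was 1.47 higher (adjusted p = 0.00303). The 9 root cap genes changed by between -0.87 and 0.15 (median -0.18), and 2 of 15 endodermis genes fell. Of 33 cell division genes, CYCB1;3 (0.28) and CYCB2;3 (0.33), mitotic cyclins, rose, and the count was 1 without library A or C of 180 min or mock library A or B.

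**Figure D2:**
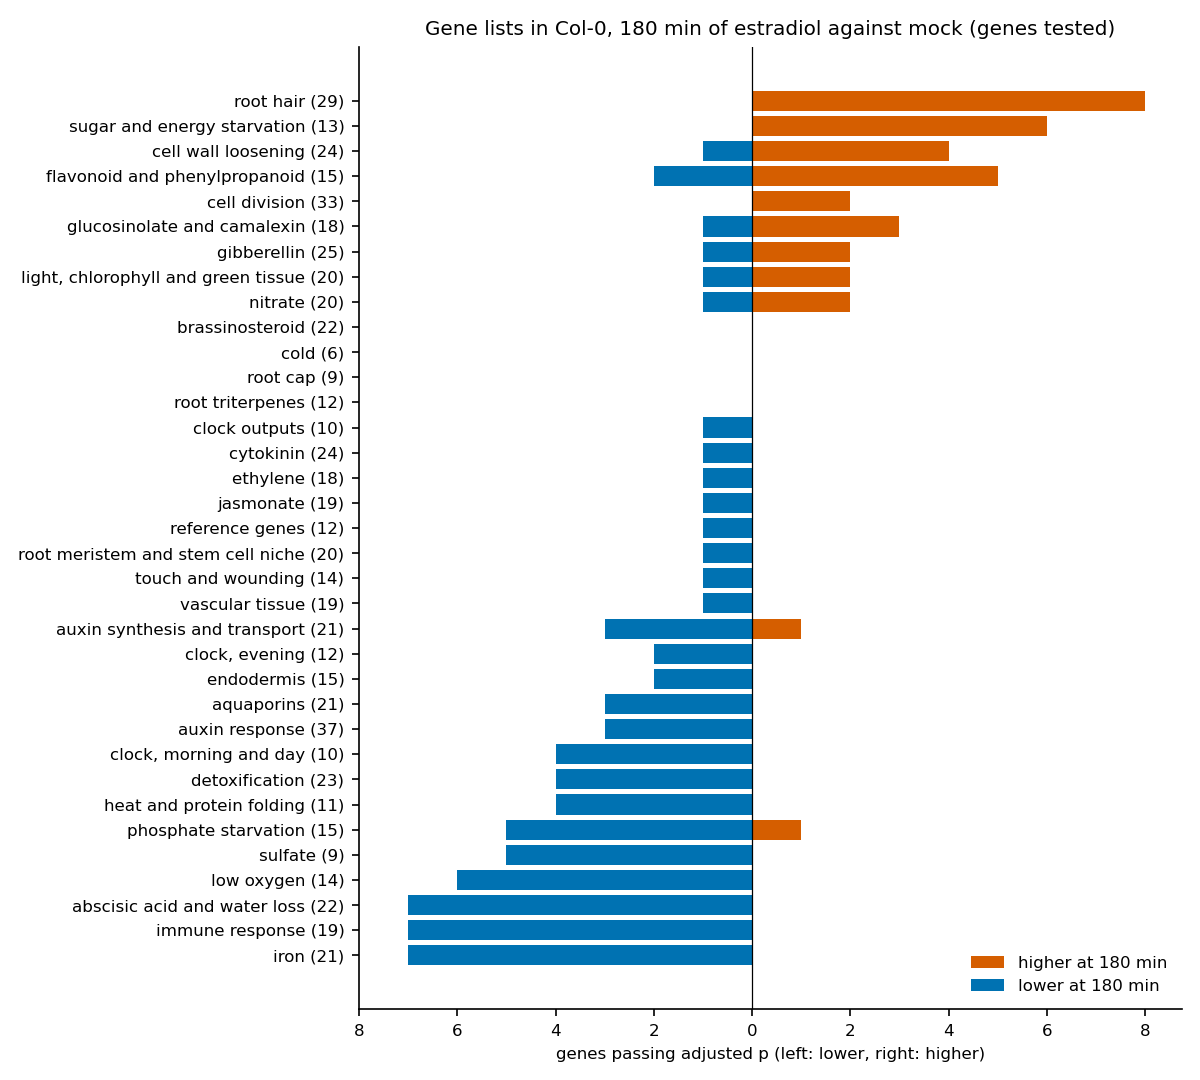
Number of genes in each of 35 lists that passed an adjusted p of 0.05 in Col-0 at 180 min against mock, with genes that fell to the left and genes that rose to the right, and the number tested in parentheses. The longest bars are those of iron, immune response, and abscisic acid and water loss on the left, with 7 genes each, and root hair on the right, with 8.

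The 2 inducible lines were poured with the same media and sampled at the same times, and their libraries share none with Col-0, but they also expressed their transgene. In pG1090::XVE ≫ AXR3-1, 19.5% of all genes passed at 180 min against the line's own mock, and 21 of the 48 called genes did. Of these, 14 moved in the direction seen in Col-0 (6 up and 8 down) and 7 in the opposite one (5 that rose in Col-0 and 2 that fell). In pG1090::XVE ≫ ΔMP, 24.8% of all genes passed, and 23 of the 48. Of these, 22 moved as in Col-0 (9 up and 13 down) and 1 in the opposite direction.

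Of the called genes, 7 passed in the same direction in all 3 lines. The share of all genes tested that did so was not counted, so this number only describes the called genes. BCAT4 and AT1G06830 rose, and CYP707A3, AT2G36690, AT1G80450, AT1G19530 and AT4G07820 fell. In Col-0 AT1G06830 lost the call without mock library C and AT1G19530 without mock library B. CYP707A3 fell by 1.07 in AXR3-1 (adjusted p = 6.97e-07) and by 2.03 in ΔMP (adjusted p = 3.48e-12). AT2G36690 fell by 1.18 and 1.31, and BCAT4 rose by 0.89 and 1.19 in the same order. The glutaredoxin AT1G06830 rose more in size in the inducible lines, by 2.17 and 2.31, though neither difference from Col-0 passed.

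The extensin-like genes fell in AXR3-1 and rose in ΔMP. EXT12 fell by 1.84 in AXR3-1 and rose by 0.79 in ΔMP, EXT10 fell by 1.34 and rose by 1.46, and AT5G06630 fell by 1.41 and rose by 1.87. Their responses in ΔMP were not shown to differ from those in Col-0 (interaction adjusted p = 0.373, 0.601 and 0.0589 in the same order). Of the 29 root hair genes, 22 fell and 3 rose in AXR3-1, and 20 rose and 1 fell in ΔMP, where Col-0 had 8 higher and 0 lower. In ΔMP AT5G43450, an oxygenase that fell by 1.31 in Col-0 from under 2 TPM, rose by 4.07. Its fall in Col-0 had an adjusted p of 0.0484, which moved to between 0.0537 and 0.21 when each of the 6 libraries in turn was left out, so that it passed in none of those settings. In AXR3-1 the low sulfur genes LSU3 and ATSDI1 rose by 1.33 and 1.47, and in ΔMP they fell by 1.48 and 1.89. LSU2 did not rise in AXR3-1 (-0.37, adjusted p = 0.392) and fell by 1.14 in ΔMP. Of the 9 tested sulfate genes, 3 rose and 1 fell in AXR3-1 (median -0.14), and 2 rose and 4 fell in ΔMP (median -0.37).

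An interaction term asked whether a line responded unlike Col-0. For AXR3-1 it passed for 10.9% of all genes and for 22 of the 48. For ΔMP it passed for 10.1% and for 14 of the 48. The 48 were picked for a large change in Col-0 and the interaction holds that same change, so these counts describe the genes and do not compare them with others.

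**Figure D3:**
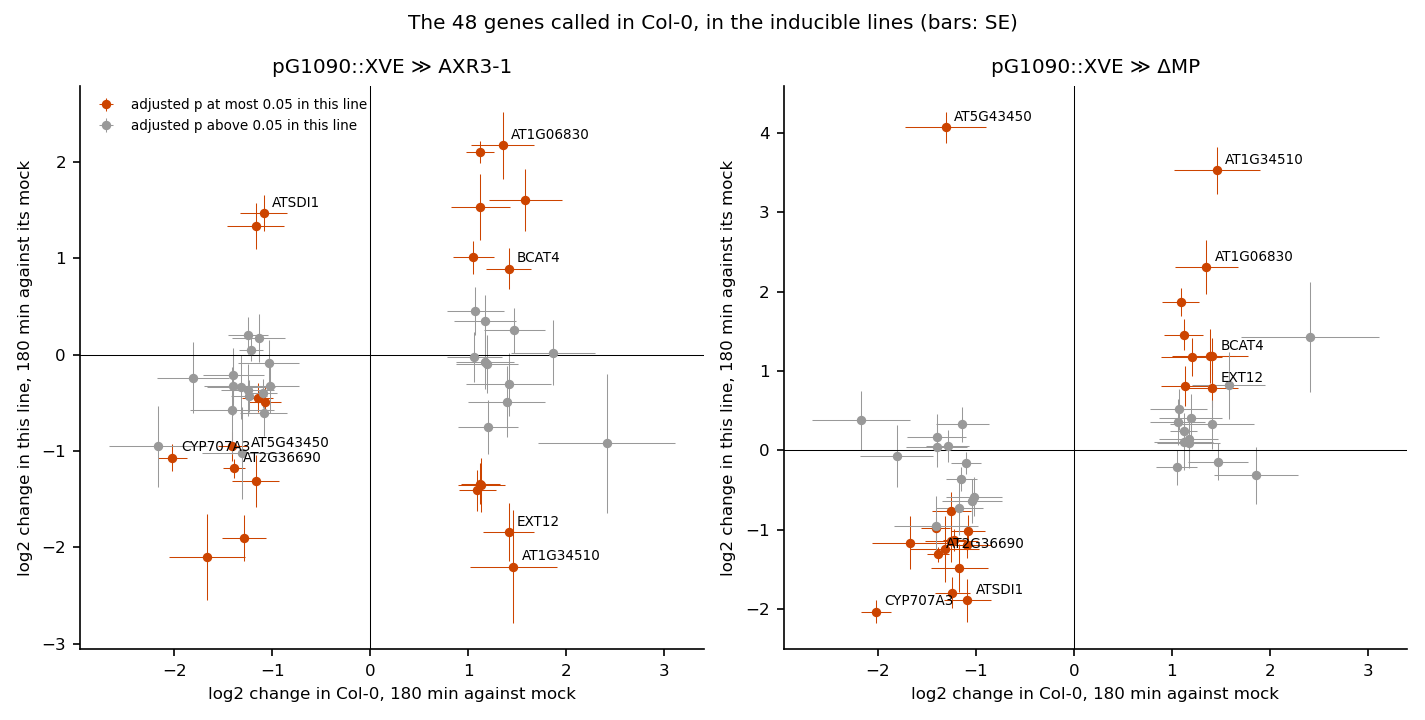
Change of the 48 called genes on the log2 scale in Col-0 (horizontal) and in each inducible line (vertical) at 180 min against the mock of the same line. Bars are SEs, and orange marks an adjusted p of at most 0.05 in the inducible line. CYP707A3, AT2G36690, BCAT4 and AT1G06830 lie in the corners of shared direction in both panels, and EXT12 changes sides.

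The level of the Col-0 mock bears on which genes were called. Between the mocks of AXR3-1 and Col-0, 2.05% of all genes passed, and 8 of the 48 did, 4 higher and 4 lower in AXR3-1. Between the mocks of ΔMP and Col-0, 3.82% passed, and 12 of the 48. Of these 20 differences, 19 were in the direction of the change in Col-0 at 180 min, and the other was HSFA2 in ΔMP, 1.87 above the Col-0 mock. The mock of Col-0 enters both sides of this statement, and the genes were called on it.

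bHLH39 shows it: against 49.5, 59.8 and 55.5 TPM in the Col-0 mock, the mean of the mock was 29.2 TPM in AXR3-1 and 23.3 TPM in ΔMP, near the 23.4 TPM of Col-0 at 180 min. The mock of AXR3-1 lay 0.88 below that of Col-0 (adjusted p = 1.96e-05) and that of ΔMP 1.27 below (adjusted p = 3.61e-09). bHLH38, LBD41, NIP2;1 and ATS3 also differed between the Col-0 mock and at least 1 other mock. For CYP707A3 the mock of AXR3-1 lay 0.5 below that of Col-0 on the log2 scale and passed (adjusted p = 0.0326), and that of ΔMP, at -0.38, did not (adjusted p = 0.0938). For AT2G36690 the differences were -0.25 and -0.27 and for BCAT4 0.47 and -0.16, none of them past the threshold.

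As an alternative chosen after seeing the data, Col-0 at 180 min was set against the 6 mock libraries of the other lines in place of its own. This called 59 genes. Of the 22 genes called higher with the Col-0 mock, 11 still passed in the same direction and 2 changed sign, and of the 26 called lower, 13 passed and 2 changed sign. CYP707A3 was 1.59 lower, AT2G36690 1.13 lower and BCAT4 1.25 higher. bHLH38 was level (0.00), and NIP2;1 (0.11), CRK4 (-0.18) and ATS3 (-0.12) had the other sign, none of these 4 past the threshold. HSFA2 fell by 1.87, more than with its own mock.

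The lists also differed in how far their counts held. Over all genes tested, 789 rose and 670 fell against the mocks of the other lines, where 445 rose and 788 fell against the Col-0 mock. The list counts below are therefore set beside unlike backgrounds. Against the mocks of the other lines, 2 iron genes fell and 2 rose, where 7 had fallen. Of the low oxygen genes 3 fell in place of 6, and of the sugar genes none rose in place of 6. By contrast 7 morning and day clock genes and 7 evening ones fell in place of 4 and 2, 8 genes of abscisic acid and water loss in place of 7, 5 immune genes in place of 7, and 6 heat genes in place of 4. Of the flavonoid and phenylpropanoid genes 1 rose and 3 fell in place of 5 and 2, 1 phosphate starvation gene fell in place of 5, and 3 sulfate genes in place of 5. Root hair genes rose in 6 cases in place of 8, and glucosinolate genes in 5 in place of 3. The part that line, plate or harvest had in these differences was not tested.

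**Figure D4:**
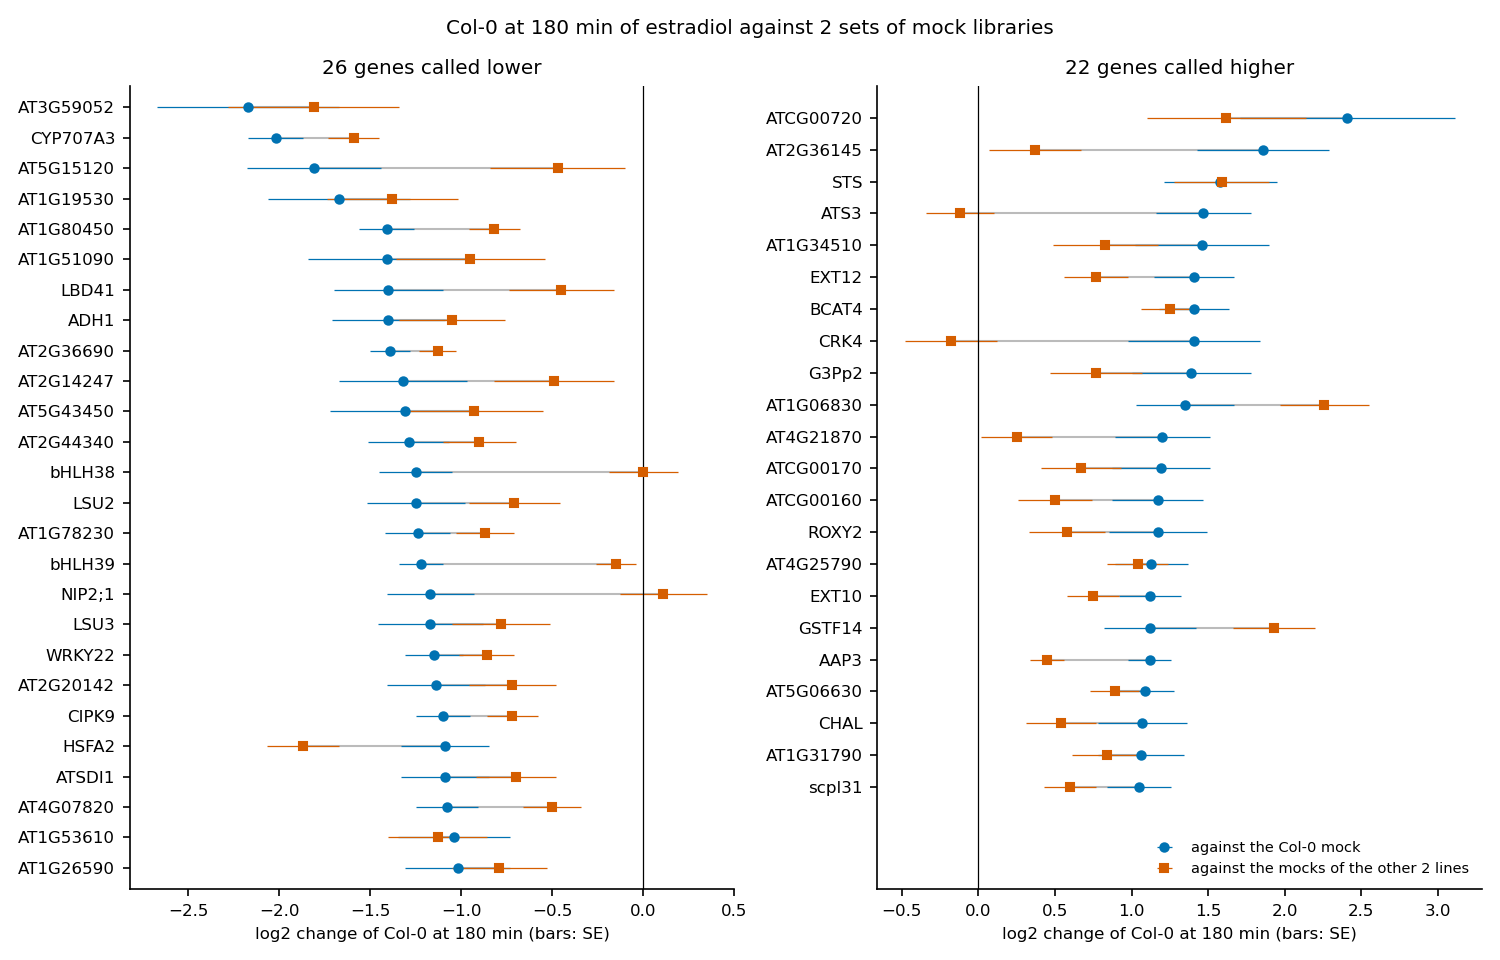
Change of the 48 called genes in Col-0 at 180 min on the log2 scale, against the 3 mock libraries of Col-0 (blue circles) and against the 6 mock libraries of the other 2 lines (orange squares), with SEs as bars. CYP707A3 and AT2G36690 keep most of their fall, and bHLH38 lies at 0.00 on the second scale.

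BT2 and bZIP1 had their lowest levels at 90 min of estradiol in the other lines as well. In AXR3-1 the mean level of BT2 was 74.8 TPM with mock, 31 TPM after 90 min of estradiol and 109.9 TPM after 180 min. In ΔMP the means were 45.7, 27.2 and 63.9 TPM, beside 48, 15.6 and 83.9 TPM in Col-0. In each line the 3 libraries at 90 min lay below the 3 of the mock and the 3 at 180 min. bZIP1 was likewise lowest at 90 min in each line, but its mocks in AXR3-1 and ΔMP, with means of 21.2 and 20 TPM, were above the 11.6 TPM of Col-0. At 180 min it differed from those mocks by less than the test could call (adjusted p = 0.676 in AXR3-1 and 0.307 in ΔMP).

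**Figure D5:**
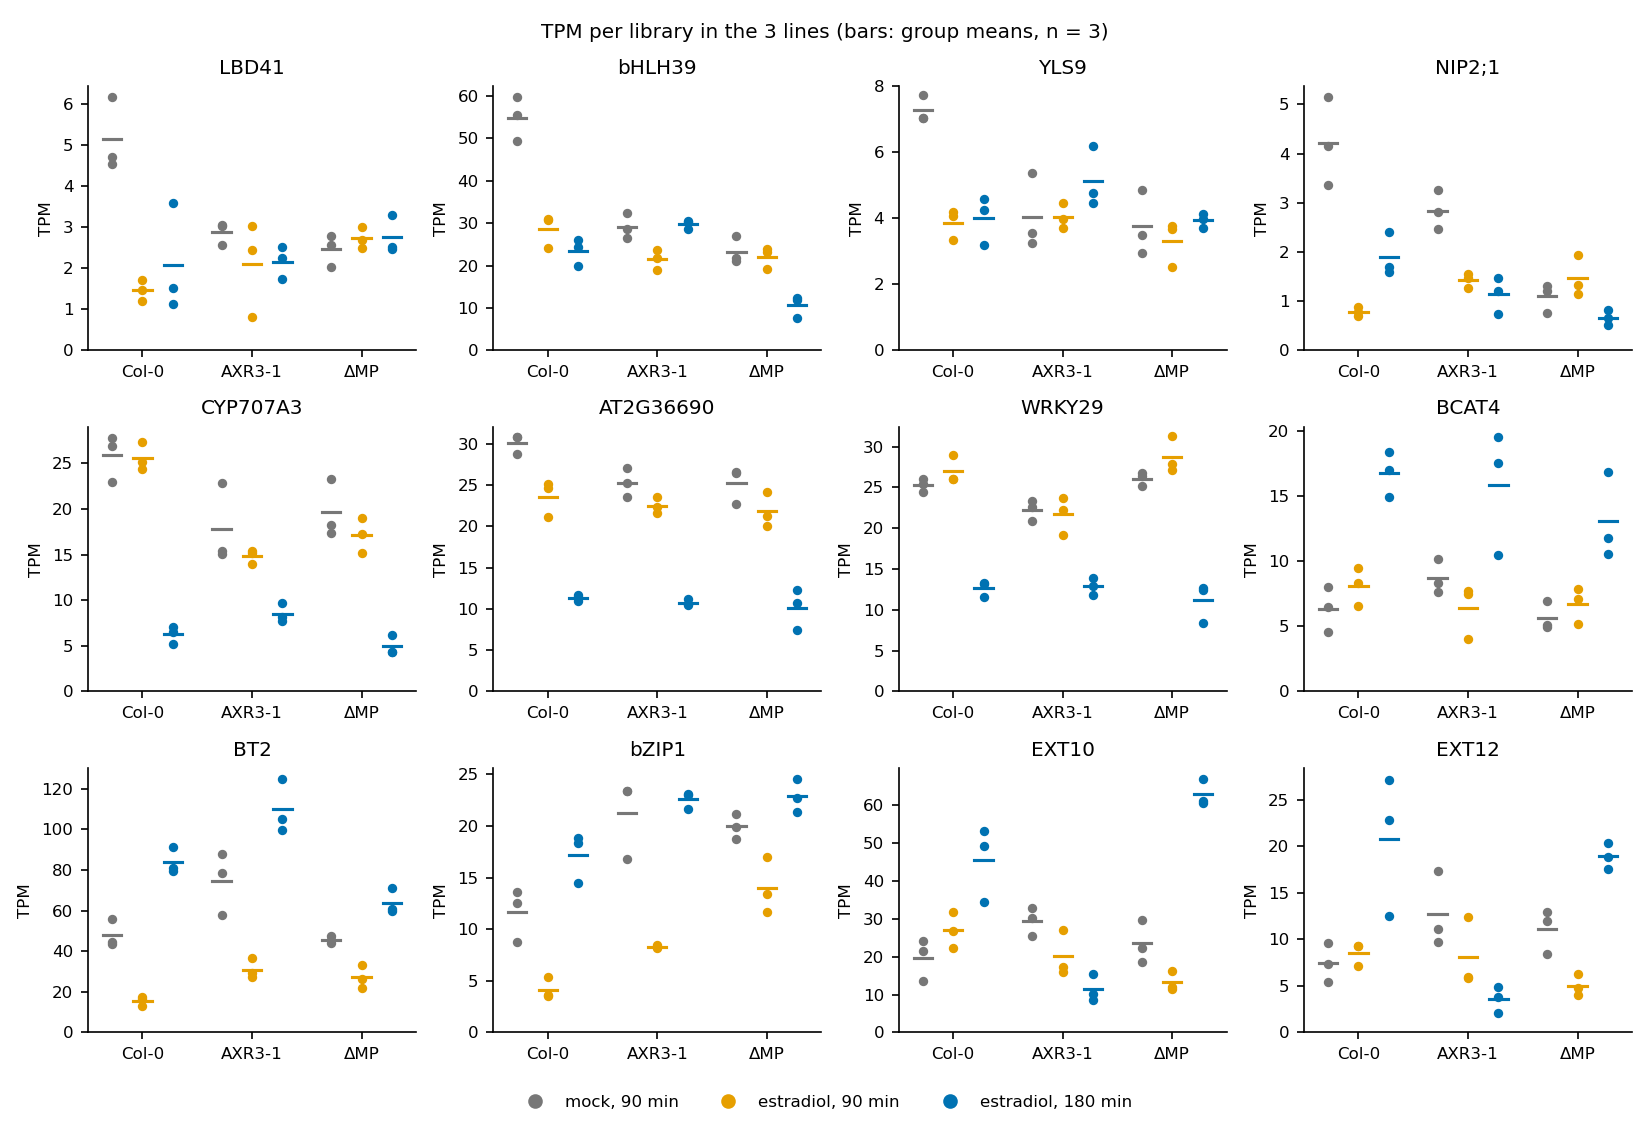
TPM per library for 12 genes in Col-0, AXR3-1 and ΔMP (gray, mock at 90 min; orange, estradiol at 90 min; blue, estradiol at 180 min; bars are means of 3 libraries). The top row holds genes whose mock is highest in Col-0. The middle row holds WRKY29 with CYP707A3, AT2G36690 and BCAT4, which each moved in the same direction in the 3 lines. CYP707A3 fell less in AXR3-1 than in Col-0. The bottom row holds BT2 and bZIP1, lowest at 90 min in each line, with EXT10 and EXT12, which fell in AXR3-1.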

How the data were processed

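RNA sequencing of pooled root tips was used, with 27 libraries in 9 groups of 3. The authors quantified reads against Arabidopsis coding sequences with Salmon 1.3.0, and the deposited values used here are the estimated count and the TPM of 32875 transcripts per library. The submitters' processing notes name Trimmomatic and TAIR10, while the study's methods name other read correction and trimming tools, and which of these made the deposited files is not settled here. Coding sequences hold no UTRs, so reads from UTRs were not counted.

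Estimated counts were summed over the transcripts of each of 27313 loci and rounded to whole numbers, and TPM was summed in the same way. Library totals ran from 13634037 to 34272503 (median 20071330). Counts of all 27 libraries were fitted in 1 model of 9 groups with edgeR 4.0.16 in R 4.3.3 (TMM normalization, quasi-likelihood test, 18 residual degrees of freedom). The model covered 19530 genes after edgeR's filter on low counts. Every adjusted p is from this test with Benjamini-Hochberg adjustment over all genes tested, unless an alternative is named. Log2 changes carry a prior count of 0.125. The script was tested on simulated data before use.

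Loci were matched to RefSeq (TAIR10.1), which held 26645 of them, 10370 with a symbol, and coordinates and promoters are from that build. Coding lengths were equal for 97.3% of 26636 loci compared. To see where reads could be exchanged between paralogs, each coding sequence was split into words of 31 bases and those also present in another gene were counted.

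The text names every called gene with a symbol, genes called without one by locus and product, members of 35 lists that passed or serve as examples, the native genes of the transgenes, GA2OX6 and GA2OX8. The lists had 749 entries, of which 704 matched (698 loci), 43 did not and 2 matched a gene of another role. The groups of genes, the lists, the motifs and this rule were chosen with earlier results of these data known, and the protein families after values were seen. Alternatives were DESeq2 1.42.0, limma 3.58.1 on log2(TPM + 0.5) and log2(TPM + 1), other filters, normalizations, sets of libraries and counting, no minimum fold, the title's letter as a block, and each library left out. Mocks of the other lines as controls were added after seeing the data.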

Additional observations from a re-analysis of the deposited data

Results flagged for a closer look

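For 16 of the 24 called genes with a symbol, the response of at least 1 inducible line at 180 min differed from that of Col-0 in the interaction test (edgeR quasi-likelihood, Benjamini-Hochberg adjusted p). Values are the response of the line minus that of Col-0 on the log2 scale. Because the genes were picked for a large change in Col-0, part of such a difference follows from the choice, and its causes were not tested.

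Among genes that rose in Col-0, the difference in AXR3-1 was -3.25 for EXT12 (adjusted p = 2.82e-07), -2.46 for EXT10 (adjusted p = 2.29e-07), -1.87 for G3Pp2 (adjusted p = 0.0182), -1.72 for CRK4 (adjusted p = 0.035) and -1.22 for ATS3 (adjusted p = 0.0376). AAP3 rose more in AXR3-1 than in Col-0, by 0.98 (adjusted p = 0.00017). In ΔMP the difference was -1.61 for ATS3 (adjusted p = 0.00437), -1.26 for scpl31 (adjusted p = 0.00398) and -0.88 for AAP3 (adjusted p = 0.000691).

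Among genes that fell in Col-0, the low sulfur genes ATSDI1 and LSU3 differed most in AXR3-1, by 2.56 (adjusted p = 1.94e-07) and 2.51 (adjusted p = 1.06e-05). The iron regulators bHLH38 and bHLH39 differed by 1.44 (adjusted p = 0.000358) and 1.27 (adjusted p = 9.51e-07), CYP707A3 by 0.95 (adjusted p = 0.00201), CIPK9 by 0.7 (adjusted p = 0.0295) and WRKY22 by 0.69 (adjusted p = 0.0368). In ΔMP the difference was 1.57 for LBD41 (adjusted p = 0.0117), 1.44 for ADH1 (adjusted p = 0.0173), 0.94 for CIPK9 (adjusted p = 0.00169) and 0.79 for WRKY22 (adjusted p = 0.0172).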

How the results depend on the processing

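All 48 called genes kept their direction in every other setting that kept all libraries and the Col-0 mock and gave them a value (13 settings for most, 10 to 12 for AT1G51090, ATCG00720, CRK4 and STS), and 37 passed in each of theirs. Without the limit on fold, 1233 genes passed (445 higher and 788 lower). On log2(TPM + 1), limma called 23 genes (6 higher and 17 lower), and on log2(TPM + 0.5) it called 14 higher. For 90 min against mock, limma on log2(TPM + 0.5) called 30 genes (5 higher and 25 lower) in place of 47, and DESeq2 called 5 higher in place of 8. For 180 against 90 min that limma fit called 65 genes (45 higher) in place of 99. DIN10 changed sign, to -0.06, with the highest transcript per locus.

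Leaving out 1 library gave 35 to 59 calls at 180 min, 11 to 30 of them higher and 24 to 29 lower. The lowest count of higher genes was without library B of 180 min, and 14 were called without mock library A. For 90 min against mock the range was 28 to 52 (3 to 8 higher, 25 to 47 lower), lowest without mock library C, and for 180 against 90 min 81 to 107 (54 to 80 higher, 21 to 30 lower). Of the 48 genes, 23 lost the call without at least 1 library.

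With the letter as a replicate block, 48 genes were called (22 higher and 26 lower), 43 of them shared. Same-letter libraries of 180 min and mock had correlations of -0.008, -0.077 and -0.046, and those of 180 and 90 min 0.029, 0.085 and 0.203. Since not every pair was over 0.1, the letters were not used to pair libraries, and what they mark is not known.

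Against the mocks of the other 2 lines, chosen after seeing the data, these changed sign or lay at 0: NIP2;1 (0.11), CRK4 (-0.18), bHLH38 (0.00), ATS3 (-0.12), 4CL3 (-0.18, and -0.01 against all 3 mocks), YLS9 (0.02), OPT3 (0.20), CKX4 (0.16), ABF3 (0.06), CYP81F4 (0.07) and bZIP1 (-0.22). The cause of these changes was not tested. Depth limits the low genes most: CRK4, STS and GA2OX8 had under 20 counts in each mock library.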
